A study of Mus musculus with 8 samples.

Results

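The variable (V) segments of the T cell receptor were read in CD45+ cells of normal mouse brain and of mouse glioma. The members are the 128 genes whose symbol begins with Trav and the 35 whose symbol begins with Trbv, together 163 of the 31053 genes in the deposited count matrices. They were counted in T cells, taken as barcodes with at least 1000 unique molecular identifiers (UMIs, each standing for 1 captured transcript molecule), at most 10% mitochondrial UMIs and at least 2 UMIs summed over Cd3d, Cd3e and Cd3g. These genes encode the CD3 chains that carry the receptor's signal. By this rule 190 of 13680 barcodes in the control library (1.39%) and 1718 of 11049 in the glioma library (15.5%) were T cells. They were divided into CD8 cells (Cd8a and Cd8b1 together at least 2 UMIs), Foxp3 cells (at least 1 UMI of Foxp3, the transcription factor of regulatory T cells) and other cells. The glioma library held 449 CD8, 247 Foxp3 and 1013 other cells, and 9 cells met both rules and entered no class. The control library held 71 CD8, 2 Foxp3 and 117 other cells.

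A T cell builds its receptor by cutting and joining DNA. At the alpha locus 1 V segment is joined to 1 J segment, and at the beta locus a V, a D and a J segment are joined, so that the finished transcript carries a single V segment in front of the constant region (Trac, or Trbc1 or Trbc2). The choice of V segment shapes the part of the receptor that touches antigen and the major histocompatibility complex. All cells descended from 1 T cell share it, which is why V usage is commonly read as a marker of clones. Gamma delta T cells carry instead a delta chain (constant gene Trdc) and a gamma chain, and segments with "dv" in their symbol can be joined to either the alpha or the delta chain.

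The control group consisted of CD45+ cells from the brains of normal mice, and the glioma group of CD45+ cells from the tumours of mice bearing glioma in the brain. Both were sorted with magnetic beads. Strain, sex, age, tumour line and time after implantation were not given in the sources used here. The labels list 4 samples in each group, but the counts form 1 pooled matrix per group with no map from barcodes to animals. Each group is therefore 1 library without replicates, and no test between groups or classes was possible. Intervals are exact 95% intervals (a share has the Clopper-Pearson interval, a sum the Poisson interval and a ratio the conditional binomial one). They describe counting error alone and leave out the spread between animals. Several cells of 1 clone and several UMIs of 1 cell are not independent, which these intervals do not cover.

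Sequencing depth and the purity of the T cell rule bear on every value below. T cells had a median of 12882.5 UMIs (control) and 8892.5 UMIs (glioma), and within glioma the medians were 10496 in CD8, 12710 in Foxp3 and 7882 in other cells. In the control library 147 of the 190 T cells (77.4%) also held at least 2 UMIs of the myeloid genes Csf1r, Adgre1 and Fcgr1, with a median of 15321 UMIs against 5842 in the remaining 43. In glioma 380 of 1718 (22.1%) did, with medians of 20445 and 7529.5 UMIs. The microglia markers P2ry12 and Tmem119 summed to 1218 CPM (counts scaled so that every sum has the same total) in control T cells and to 6.65 CPM in glioma T cells, and neither was at 0. The T cell list was present at all 12 of its genes in every glioma class. The part that mixed or doublet droplets had in the results was not tested. Among the T cell barcodes, 2 in control and 15 in glioma also held at least 300 UMIs in the other library. A further 453 glioma barcodes had exactly 1 CD3 UMI and lay just outside the rule, while 95 had exactly 2 and lay just inside. At the edges of the classes, 96 glioma T cells had 1 Cd8a or Cd8b1 UMI, 92 of the CD8 rule's cells had 2 or 3, and 82 had a single Foxp3 UMI.

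The segments that led in glioma are shown by their last 60 bases, because this is the end that is joined to the rest of the receptor chain. Sequences are those of the GENCODE M21 transcripts (build GRCm38), written 5′ to 3′. Capitals mark TGTGC or TGCGC, whose first letters are the codon of the conserved cysteine at which the antigen-binding loop CDR3 begins.
Trbv12-2: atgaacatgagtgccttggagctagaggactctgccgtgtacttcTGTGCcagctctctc
Trbv13-1: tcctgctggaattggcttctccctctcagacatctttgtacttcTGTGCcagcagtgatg
Trbv13-2: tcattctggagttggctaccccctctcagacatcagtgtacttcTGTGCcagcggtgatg
Trbv2: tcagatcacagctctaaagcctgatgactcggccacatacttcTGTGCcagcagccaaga
Trbv3: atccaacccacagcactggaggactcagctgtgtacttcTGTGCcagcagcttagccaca
Trav10: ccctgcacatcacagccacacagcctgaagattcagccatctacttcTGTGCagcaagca
Trav15-2-dv6-2: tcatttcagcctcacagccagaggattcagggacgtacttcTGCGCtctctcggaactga
Trav16: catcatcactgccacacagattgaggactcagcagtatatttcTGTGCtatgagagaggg
Trav19: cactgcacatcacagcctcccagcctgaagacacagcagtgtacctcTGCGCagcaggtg
Trav3-3: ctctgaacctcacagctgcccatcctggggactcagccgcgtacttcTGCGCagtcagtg
Trav6-7-dv9: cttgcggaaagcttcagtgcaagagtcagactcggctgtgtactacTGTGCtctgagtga

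Either run of letters, read on the transcript strand only, was found in the last 30 bases of 111 of the 128 Trav segments (86.7%) and of 26 of the 35 Trbv segments (74.3%). Trbv1, which is described with the classes, has neither: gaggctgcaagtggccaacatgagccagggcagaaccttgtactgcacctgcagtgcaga. The Trav genes lie on chromosome 14 between 52427928 and 53977678 and the Trbv genes on chromosome 6 between 40891229 and 41558452 (GRCm38). GENCODE gives a functional biotype to 108 Trav and 22 Trbv segments and calls 20 and 13 pseudogenes. Overlap with another gene on the same strand affected 5 Trbv segments, among them Trbv4 and Trbv5, and no Trav segment. Reads cannot be divided where the transcripts of both genes share sequence.

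Not all of the alpha locus could be counted. Parts of the mouse locus are duplicated, and the copies carry a "d" or "n" in their symbols (Trav6d-7, Trav6n-7). For each segment every stretch of 91 bases was looked up in all other genes, 91 being a read length assumed here. In 39 Trav segments no stretch was unique, and in 45, these 39 included, fewer than 10% were. At the beta locus, 32 of 35 segments were unique over their whole length and 1 had no unique stretch. The difference between copies can be seen in the last 120 bases of Trav6-7-dv9, the Trav segment found in the most cells, beside those of Trav6n-7, where capitals mark the bases that differ.
Trav6-7-dv9: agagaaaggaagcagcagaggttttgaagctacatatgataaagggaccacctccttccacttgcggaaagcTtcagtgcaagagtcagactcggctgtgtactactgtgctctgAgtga
Trav6n-7: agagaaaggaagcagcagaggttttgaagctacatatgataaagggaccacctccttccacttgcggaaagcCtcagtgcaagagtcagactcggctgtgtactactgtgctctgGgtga

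Over their 358 aligned bases these copies differed at 6 positions (98.3% identity), whereas Trav6n-7 and Trav6d-7 were identical. Trav15-2-dv6-2 and Trav15n-2 shared 98.4%, Trav10 and Trav10n 98.3%, and Trav10 and Trav10d 99.3% of their aligned bases. None of the 39 Trav segments without a unique stretch had a UMI in any T cell of either library. Of the 65 segments with at least 60% unique stretches, 44 were seen in glioma T cells, and they held 90.6% of all Trav UMIs. The 39 d copies held 5.26% and the 34 n copies 9.97% of the glioma Trav UMIs. A count of 0 for a segment without a unique stretch therefore says nothing of its use. For a copied segment that is unique only in part, a count of 0 is weak evidence. The numbers of Trav segments below are numbers that the counting could resolve.

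V segments were read in only a minority of T cells. In glioma 239 of 1718 T cells had a Trav UMI (13.9%, 12.3 to 15.6%) and 164 had a Trbv UMI (9.55%, 8.20 to 11.0%). At least 1 of either was found in 382 cells (22.2%, 20.3 to 24.3%), and 21 cells had both chains. A positive cell held 1.51 Trav or 1.15 Trbv UMIs on average, so that most calls rest on a single molecule. In the control library 12 of 190 T cells (6.32%, 3.31 to 10.8%) had a Trav UMI and 12 had a Trbv UMI. The constant regions were far more often read: glioma T cells held 6.36 Trav UMIs per 100 Trac UMIs and 0.788 Trbv UMIs per 100 UMIs of Trbc1 and Trbc2. The labels name a kit that reads the 3′ end of transcripts, and the V segment lies at the 5′ end, upstream of constant regions whose longest transcripts have 935 bases (Trac), 737 (Trbc1) and 692 (Trbc2). The joining and diversity segments (60 Traj, 14 Trbj and 2 Trbd genes) had 0 UMIs in the T cells of both libraries.

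In the whole glioma library 361 of 385 Trav and 189 of 207 Trbv UMIs lay in the T cells, and in the control library 21 of 33 and 12 of 15. Among 8878 glioma barcodes without a CD3 UMI, 5 had a Trav and 4 a Trbv UMI (0.0563% and 0.0451%) at a median of 11670 UMIs, above the 8892.5 of the T cells. Among these, 6989 barcodes with myeloid UMIs held 2 Trav-positive and 2 Trbv-positive barcodes. In the control library 3 of 13401 barcodes without CD3 UMIs had a Trav UMI and 0 had a Trbv UMI. Free RNA, read from barcodes of 10 to 100 UMIs, held no Trav or Trbv UMI among 732583 UMIs in control and 1611449 in glioma. Receptor RNA was not absent there: Trac stood at 15.0 CPM in control and 11.8 CPM in glioma, against 191 and 261 CPM in the T cells. V segments were read far less than Trac, so these few UMIs cannot show that free V segment RNA was absent. Among the leading glioma segments, 47 of the 47 Trav15-2-dv6-2 UMIs and 16 of the 16 Trav10 UMIs of the whole library lay in T cells, and 22 of 24 for Trbv12-2. Trbv1 was lowest among the 6 leading Trbv segments, with 14 of its 20 UMIs (70.0%) in T cells.

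By class, a Trav UMI was read in 80 of 449 glioma CD8 cells (17.8%, 14.4 to 21.7%), in 36 of 247 Foxp3 cells (14.6%, 10.4 to 19.6%) and in 120 of 1013 other cells (11.8%, 9.92 to 14.0%). The intervals of CD8 and other cells did not overlap, but CD8 cells were also sequenced more deeply. In CPM the sums were 18.8 for Trav in CD8 (15.6 to 22.5), 13.7 in Foxp3 (10.2 to 18) and 16.4 in other cells (14.1 to 18.9), with overlapping intervals. For Trbv the shares were 10.9% in CD8, 8.91% in Foxp3 and 9.08% in other cells. When every cell was thinned to 2000 UMIs, Trav was read in 5.37% of CD8, 4.49% of Foxp3 and 3.82% of other cells, and Trbv in 1.57%, 1.22% and 3.12%. No order of the classes can be read from these, since their intervals overlap. Thinning the glioma T cells together gave Trav shares of 2.10% at 1000, 4.30% at 2000, 7.5% at 4000 and 9.55% at 8000 UMIs per cell. At 8000 UMIs 744 of the 1718 cells were too shallow to enter. The share of cells with a read V segment was higher at each greater depth.

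**Figure D1:**
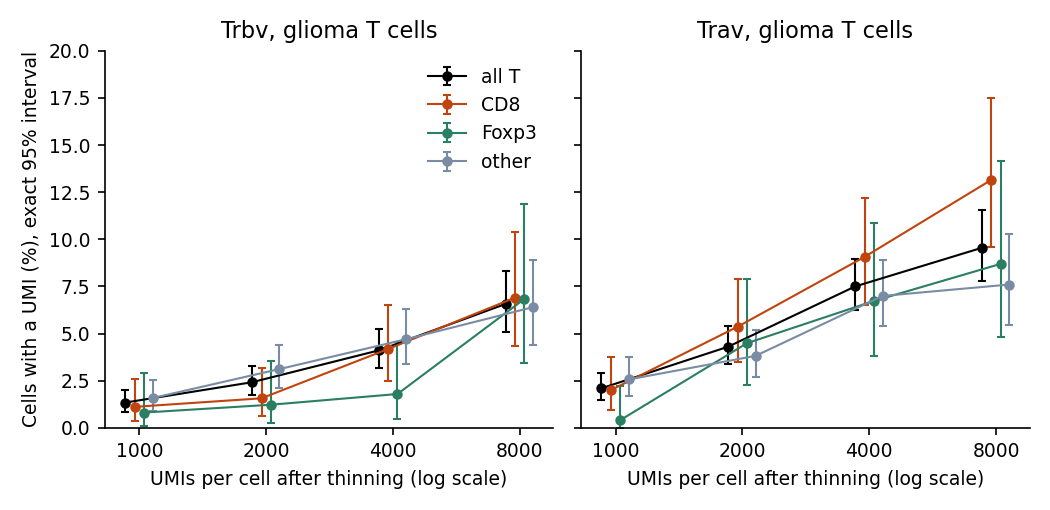
Share of glioma T cells with at least 1 Trbv UMI (left) or Trav UMI (right), in %, after each cell was thinned to the number of UMIs on the horizontal log axis; shallower cells are left out. Points are all T cells (black), CD8 (orange), Foxp3 (green) and other cells (grey) with exact 95% intervals; for all T cells the Trav share goes from 2.10% at 1000 to 9.55% at 8000 UMIs.

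Most functional beta segments were read at least once in the glioma T cells. Of the 35 Trbv genes 19 were read, which covers 18 of the 22 functional segments and 1 of the 13 pseudogenes (Trbv24, 1 UMI). Trbv12-2 was found in 22 cells (1.28% of glioma T cells, 0.804 to 1.93%), Trbv13-2 in 20, Trbv3 in 19, and Trbv2 and Trbv13-1 in 17 each. Then came Trbv1 with 13, Trbv14 with 10 and Trbv15 with 9. The order among the first 5 is not resolved: the intervals of Trbv12-2 and Trbv2 (0.577 to 1.58%) overlap. Together the 5 leading segments held 54% of the 189 Trbv UMIs. Trbv13-1, Trbv13-2 and Trbv13-3 belong to 1 family. Trbv13-1 and Trbv13-2, whose ends are printed above, shared 88.7% of their bases and were unique over their whole length. Trbv31, the segment that lies inverted and downstream of the constant genes (41557691 to 41558452, minus strand), had 0 UMIs in glioma T cells. This allows a read UMI in up to 0.175% of them (3 cells of 1718). Only 164 of the 1718 cells had any Trbv UMI, so the share of cells that use Trbv31 could be higher. In control Trbv31 was found in 2 CD8 cells.

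Trbv13-1 led among CD8 cells with a beta segment, at 10 of 49 cells (20.4%), followed by Trbv12-2 with 9 and Trbv1 with 7. Foxp3 cells had 22 positive cells in all, of which Trbv1 and Trbv13-2 took 4 each (18.2%) and Trbv19 took 3. In the other cells Trbv2, Trbv3 and Trbv13-2 were each found in 15 of 92 positive cells (16.3%), with Trbv12-2 in 13. In all, 9 Trbv segments were read in each of the 3 classes.

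**Figure D2:**
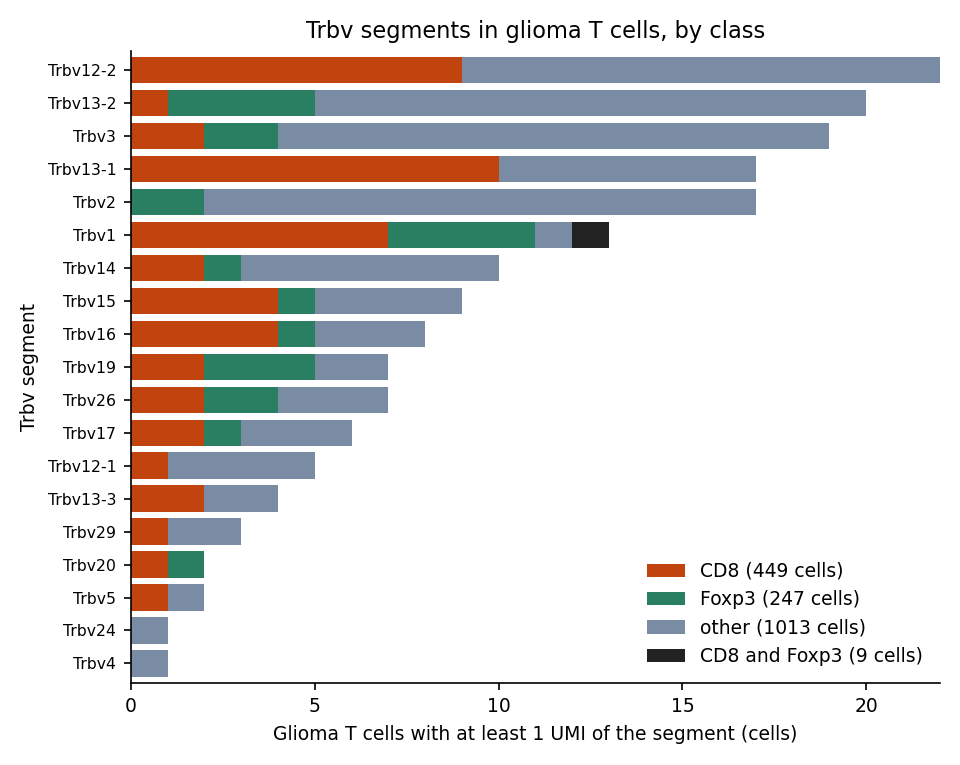
Number of glioma T cells with at least 1 UMI of each of the 19 Trbv segments read, stacked by class: CD8 (orange), Foxp3 (green), other (grey) and cells meeting both rules (black); class sizes are in the legend. Trbv2 has no CD8 cell among 17, and Trbv1 has 1 other cell among 13.

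At the alpha locus 59 of 128 Trav genes were read in glioma T cells, 56 of the 108 functional segments and 3 of the 20 pseudogenes with 1 UMI each. Trav6-7-dv9 was found in 28 cells with 47 UMIs, Trav15-2-dv6-2 in 23 cells with 47 UMIs, and Trav16 in 18 cells with 25. Trav3-3 followed with 17 cells, Trav10 with 15, Trav19 with 12, Trav9-2 with 8 and Trav13-1 with 7. The 5 leading segments held 43.8% of the 361 Trav UMIs, and 10 segments were read in all 3 classes. When copies were added to the segment they resemble, Trav16 reached 26 cells and Trav10 reached 19, while Trav6-7-dv9 stayed at 28 and Trav15-2-dv6-2 at 23. These segments also held more than 1 molecule in some cells: up to 7 UMIs of Trav6-7-dv9, 6 of Trav15-2-dv6-2, 5 of Trav3-3 and 4 of Trav19 in 1 cell.

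Position along the locus was described by distance from Trac. The 52 segments 500 to 1000 kb upstream of Trac held 261 of the 361 Trav UMIs (72.3%), the 15 nearer than 500 kb held 60 (16.6%), and the 61 beyond 1000 kb held 40 (11.1%). The far segments are also those least open to counting: their median unique share was 17.9%, against 70.2% in the middle and 100% in the near part. In CD8 cells the middle part held 86.1% of 122 UMIs, in Foxp3 cells 57.7% of 52 and in other cells 66.8% of 184. The middle part contains Trav10, Trav15-2-dv6-2, Trav3-3 and Trav6-7-dv9.

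**Figure D3:**
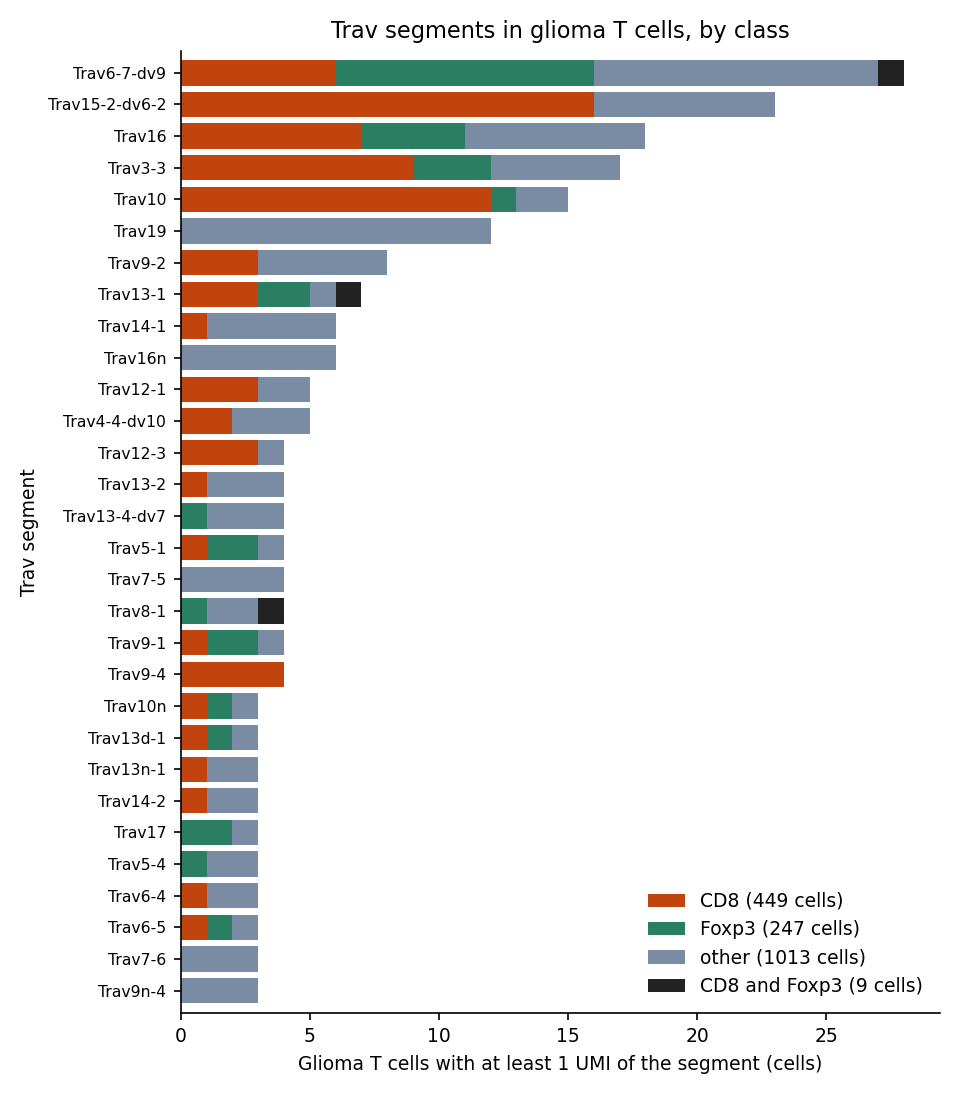
Number of glioma T cells with at least 1 UMI of each Trav segment read in 3 or more cells, stacked by class as CD8 (orange), Foxp3 (green), other (grey) and both rules (black). All 12 Trav19 cells are in the class of other cells, and 12 of the 15 Trav10 cells are CD8 cells.

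For segments of innate-like T cells only a part of the locus could be read. The invariant alpha chain of natural killer T cells uses Trav11 and that of mucosal-associated invariant T cells uses Trav1. Trav11 was read in 1 glioma T cell, of the other class. Its copy Trav11d had 0 UMIs, but only 0.395% of the stretches of Trav11 and none of Trav11d were unique (the 342 bases aligned were identical), so neither can be counted. The third copy, Trav11n, has a pseudogene biotype, was unique over its whole length and was read in 1 glioma T cell. Trav1, which is unique over its whole length, had 0 UMIs in glioma T cells, which allows a read UMI in up to 0.175% of them. Only 239 of the 1718 cells had any Trav UMI, so the share of cells that use Trav1 could be higher. Zbtb16, the transcription factor of these cells, was present in 64 of the 1013 other cells and in 1 of 449 CD8 cells.

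The dv segments led the alpha locus, but they were not mainly in gamma delta cells. T cells with at least 2 Trdc UMIs numbered 111 in glioma, and 4 of them had a Trav and 3 a Trbv UMI. A stricter set of 25 of these cells had at most 1 UMI of Trac, Trbc1 and Trbc2 together. It held 2 Trav-positive cells, both with Trav15-2-dv6-2, and no Trbv-positive cell. Those 2 cells carried 7 and 6 Trdc UMIs, and the other 21 Trav15-2-dv6-2 cells carried none. Among the remaining dv segments, Trav4-4-dv10 was read in 5 cells and Trav13-4-dv7 in 4.

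Usage of single segments was compared between the classes of glioma T cells. Shares were taken of the class cells with any UMI of the same locus, which sets aside how often any segment was read in a class. Between CD8 and other cells the exact intervals did not overlap for 2 of 19 Trbv segments and for 3 of 57 Trav segments read in either class. By the same rule, over all genes read in the same cells, 1.9% and 3.57% did not overlap. Between CD8 and Foxp3 cells, it was 0 of 17 Trbv segments (all genes 1.31%) and 1 of 37 Trav segments (all genes 2.36%). Between Foxp3 and other cells it was none of 19 and none of 54 segments (all genes 2.94% and 5.15%). The counts are too small to set against these shares, and the segments concerned are described singly, with no adjustment for the number of segments compared. Of the 6 pairs of intervals that did not overlap, 4 overlapped once cells with myeloid UMIs were left out.

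Trav15-2-dv6-2 (chromosome 14, 53649404 to 53649994, plus strand) was found in 16 of the 80 Trav-positive CD8 cells (20%, 11.9 to 30.4%), in 0 of 36 Foxp3 cells (0 to 9.74%) and in 7 of 120 other cells (5.83%, 2.38 to 11.6%). Without cells with myeloid UMIs the intervals overlapped, at 12 of 69 CD8 (9.32 to 28.4%), 0 of 24 Foxp3 (0 to 14.2%) and 6 of 102 other cells (2.19 to 12.4%). In UMIs, the CD8 sum held 32, the Foxp3 sum 0 and the other sum 15. Against 3 UMIs over the Foxp3 sum, the CD8 sum had a bound of 6.25-fold, which takes the 32 UMIs as exact. The exact interval began lower, at 2.26 on the log2 CPM scale. Against other cells the CD8 sum was 1.86 higher on that scale (0.96 to 2.88). Of all genes with at least 20 UMIs, 4.34% were at least 2-fold higher in CD8 than in Foxp3 cells and 3.9% than in other cells.

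The cells behind this segment were described further. The 16 CD8 cells had a median of 6291.5 UMIs, below the 10496 of their class, and 14 of them had Cd8b1 UMIs. Trac, the constant gene joined to this segment in an alpha chain, stood at 103 CPM in their sum and at 285 CPM in the CD8 class, and 9 of the 16 had a Trac UMI. Pdcd1, the inhibitory receptor PD-1, stood at 69.0 against 222 CPM and Mki67, a gene of dividing cells, at 17.2 against 160 CPM. None of the 16 had Cd4 or Trgv2 UMIs. Trbc1 made up 31.8% of their summed Trbc1 and Trbc2 UMIs, close to the 30.7% of the class sum. Counted by cell they differed from the class: most of the 16 held a Trbc1 UMI, against 45.7% of all CD8 cells. The 7 Trav15-2-dv6-2 cells of the other class had no Cd4 UMI either. Most of these 7 held 1 Cd8a UMI, just under the CD8 rule, and 2 were the cells with Trdc UMIs given above.

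Trav10 (chromosome 14, 53505727 to 53506286, plus strand) was read in 12 of 80 Trav-positive CD8 cells (15.0%, 8.0 to 24.7%), in 1 of 36 Foxp3 cells and in 2 of 120 other cells (1.67%, 0.202 to 5.89%). Without cells with myeloid UMIs the intervals of CD8 and other cells still did not overlap (12 of 69 and 1 of 102 cells). With its d and n copies added it was read in 13 CD8, 3 Foxp3 and 3 other cells. No Trav10 UMI was found in the control T cells. In 11 of the 12 CD8 cells no beta segment was read, and the twelfth had Trbv13-1.

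The 12 Trav10 CD8 cells also had the gamma segment Trgv2 often. Trgv2 was chosen after its values had been seen. It was found in 8 of them (66.7%, 34.9 to 90.1%) and in 67 of the 437 CD8 cells without Trav10 (15.3%). It was found in 0 of 247 Foxp3 cells and in 30 of 1013 other cells (2.96%). Tcrg-C2, a gamma constant gene, was read in 11 of the 12 and in 144 of the 449 CD8 cells. Most of the 12 were deeper than the class median of 10496 UMIs (5352 to 28283 UMIs per cell). They were also picked for a read V segment, which the cells beside them were not. The part of depth in these shares was not tested. The 3 Trav10 cells outside the CD8 class had no Trgv2 UMI. Of the 179 Trbc UMIs of these 12 cells, 0 were of Trbc1 (0 to 2.04%), and in the CD8 class Trbc1 made up 30.7%. Counted by cell, 12 of 12 had more Trbc2 than Trbc1 UMIs (73.5 to 100%). So did 75.1% of the CD8 cells without Trav10 that held at least 3 such UMIs (70.6 to 79.3%), and by this measure the intervals overlapped. By the cells that held any Trbc1 UMI, it was none of the 12, against 45.7% of all 449 CD8 cells. Gzmb, the cytotoxic granule protease granzyme B, stood at 2467 CPM in the 12 cells and at 1183 CPM in the CD8 cells without Trav10. Mki67 stood at 521 CPM against 160 CPM in the class, and their summed Trac level was 464 CPM against 285 CPM. Gzmb UMIs per cell went from 6 to 163, with a single cell holding the 163.

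Trav19 (chromosome 14, 53845234 to 53845827, plus strand) was read in 12 glioma T cells, all of the class of other cells: 12 of 120 Trav-positive cells (10%, 5.27 to 16.8%) against 0 of 80 in CD8 (0 to 4.51%) and 0 of 36 in Foxp3 cells. With those holding myeloid UMIs left out it was 9 of 102 other cells (4.11 to 16.1%) and 0 of 69 CD8 cells (0 to 5.21%), with overlapping intervals. Of the 12 cells, 11 had Cd4 UMIs, 2 to 13 per cell, and the remaining cell had 1 Cd8b1 UMI and no Cd4. In their sum Cd4 stood at 486 CPM against 212 CPM in the other class, Ifng (interferon gamma) at 628 against 357 CPM, Cxcr6, a chemokine receptor of tissue T cells, at 473 against 176 CPM, and Mki67 at 20.3 against 76.7 CPM. Ifng was read in 7 of the 12 cells. Of their 124 Trbc UMIs 1 was of Trbc1. That UMI lay in 1 of the 12 cells, whereas 51.4% of the other class held a Trbc1 UMI. All 8 cells with at least 3 Trbc UMIs had more Trbc2 (63.1 to 100%), against 68.2% in the other class. By this last measure the intervals again overlapped. No beta segment and no further alpha segment was read in any of the 12.

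Among the beta segments, Trbv1 (chromosome 6, 40891229 to 40891885, plus strand) was found in 7 of 49 Trbv-positive CD8 cells (14.3%, 5.94 to 27.2%) and in 1 of 92 other cells (1.09%, 0.0275 to 5.91%), with 4 of 22 in Foxp3 cells (18.2%, 5.19 to 40.3%). Without cells with myeloid UMIs the Trbv1 intervals overlapped, at 4 of 43 CD8 (2.59 to 22.1%) and 0 of 81 other cells (0 to 4.45%). Trbv2 (chromosome 6, 41047340 to 41047995, plus strand) went the opposite way, with 0 of 49 in CD8 (0 to 7.25%) and 15 of 92 in other cells (16.3%, 9.42 to 25.5%), and its intervals stayed apart without the cells with myeloid UMIs. The control library did not show this for Trbv2: 3 of its 4 Trbv2 cells were CD8 cells. Of the 17 glioma Trbv2 cells, 13 had Cd4 UMIs and none had Cd8a UMIs. Among the 12 Trbv2 cells with at least 3 Trbc UMIs, 11 had more Trbc2 than Trbc1.

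Trav6-7-dv9 (chromosome 14, 53709902 to 53710419, plus strand) was the segment most often read in Foxp3 cells. It was found in 10 of the 36 Trav-positive Foxp3 cells (27.8%, 14.2 to 45.2%), in 6 of 80 CD8 cells (7.5%, 2.80 to 15.6%) and in 11 of 120 other cells (9.17%, 4.67 to 15.8%), and these intervals overlapped. In UMIs the CD8 sum held 6 and the Foxp3 sum 16, a log2 ratio of -2.12 (-3.83 to -0.76), where 7.18% of all genes were at least 2-fold lower. Trav3-3 had 15 UMIs in the CD8 sum and 5 in the other sum, a log2 ratio of 2.29 (0.85 to 4.19), from 9 and 5 cells. Only segments with at least 20 UMIs over both sums entered these ratios: 2 for CD8 against Foxp3 (1 at least 2-fold higher, 1 lower), 5 for CD8 against other cells (2 higher, 1 lower, all genes 5.31% lower) and 3 for Foxp3 against other cells (none higher, 1 lower). Over all genes 3.41% were higher and 3.95% lower in Foxp3 than in other cells. The 1 lower segment there was Trbv2, with 2 and 18 UMIs and an interval that included equality (-4.76 to 0.46). These comparisons share cells, so they do not support one another.

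**Figure D4:**
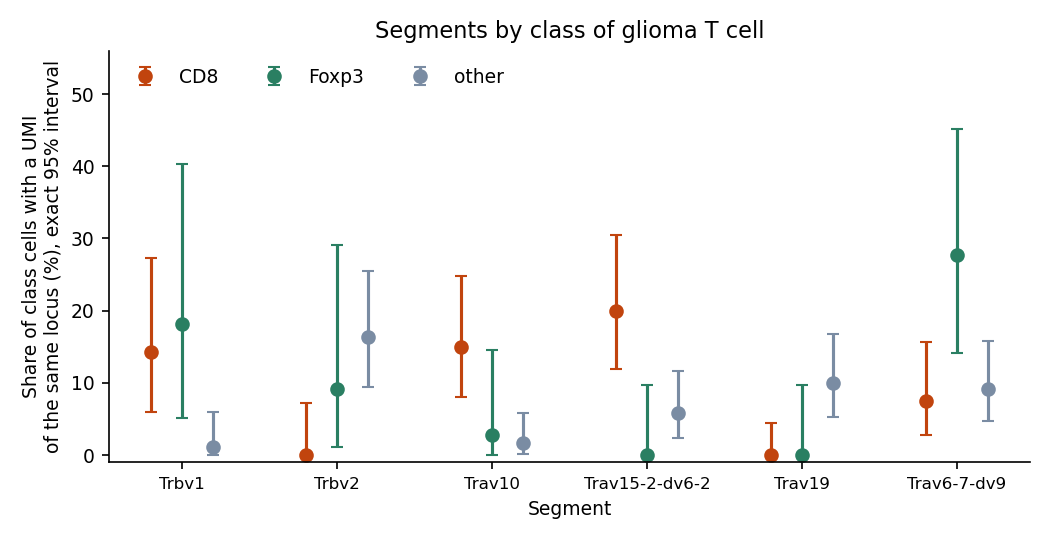
For 6 segments, the share (%) of glioma CD8 (orange), Foxp3 (green) and other cells (grey) with a UMI of the same locus that had the segment; bars are exact 95% intervals. For Trav10 and Trav15-2-dv6-2 the CD8 interval lies above that of other cells, for Trbv2 and Trav19 it lies below, and for Trav6-7-dv9 all 3 intervals overlap.

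Pairs of segments within 1 cell were few. A receptor chain carries 1 V segment, and 226 of the 239 Trav-positive and all but 9 of the 164 Trbv-positive glioma T cells had UMIs of a single segment. The other 13 and 9 cells had 2, and none had more. Trbv12-2 with Trbv13-2 was found in 3 cells, all of the other class; Trbv12-2 with Trbv14 and Trbv3 with Trbv17 were found in 2 each. The genes of the first pair are neighbours on chromosome 6, with Trbv12-2 at 41118851 to 41119364 and Trbv13-2 at 41121396 to 41121832. The 21 cells with both chains gave 24 distinct Trbv-Trav pairs, each found in 1 cell, so that no alpha-beta pair was seen again in another cell. The 13 Trav-Trav pairs were likewise each seen in 1 cell. With both chains read in only 21 of 1718 cells, a pair shared by many cells could go unseen. The lack of a repeated pair therefore says nothing of clones.

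Between the libraries little could be compared. Control T cells held 7 Trbv and 10 Trav segments in 12 cells each. Trbv2 was found in 4 of them, Trbv12-1 and Trbv31 in 2 each, Trav14-2 in 3, Trav16 in 2 and Trav5-1 in 1. In glioma T cells these were found in 17, 5, 0, 3, 18 and 4 of 1718 cells. The summed Trbv level was 4.14 CPM in control (2.14 to 7.22) and 8.67 CPM in glioma T cells (7.48 to 10), and the Trav level 7.24 (4.48 to 11.1) and 16.6 CPM (14.9 to 18.4). Those intervals did not overlap. The constant genes stood higher too, by 0.45 for Trac (191 and 261 CPM), 0.77 for Trbc1 and 0.46 for Trbc2 on the log2 CPM scale, while Trdc was lower (log2 ratio -1.16, 76.5 and 34.4 CPM). The microglial RNA of the control droplets, given above, is part of the total behind these levels, and its part in the result was not tested. Fewer T cells per droplet and less receptor RNA per T cell cannot be told apart here. In the control droplets without myeloid UMIs the Trbv level was 10.5 CPM (2.16 to 30.6) and the Trav level 17.4 CPM (5.67 to 40.7), from 3 and 5 UMIs in 43 cells. Both intervals include the glioma levels.

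Of the segments, 8 had at least 20 UMIs over both T cell sums, and 5 of them were at least 2-fold higher in glioma, where 11.3% of all genes were higher and 15.9% lower. In all 5 the control sum held 0 UMIs, so they passed the limit of 20 UMIs on glioma UMIs alone. Trbv3, with 20 glioma UMIs, lay at that limit and already had a log2 ratio of 2.45, above 2-fold. Any segment with 0 control UMIs that passed the limit was thus called higher. The 5 of 8 can therefore not be set against the 11.3% of all genes. When cells with myeloid UMIs were left out, 0 of 6 such segments were at least 2-fold higher and 1 was lower. Against 3 UMIs over the control sum, Trav15-2-dv6-2 and Trav6-7-dv9 (47 UMIs each) had a bound of 2.09-fold, which takes the 47 UMIs as exact. Their exact intervals began lower, at 0.71 on the log2 CPM scale, which is under 2-fold. Trav3-3, Trbv13-2 and Trbv3 had bounds of 1.02, 0.932 and 0.887, which support no 2-fold difference. Trav16 and Trbv2 were read in both libraries, with log2 ratios of -0.04 (-1.56 to 2.52) and -0.72 (-2.17 to 1.42).

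Genes of the receptor's signalling machinery were read alongside. Of 20 such genes, all with at least 20 UMIs, 2 were at least 2-fold higher in glioma than in control T cells and none lower. Of all genes 11.3% were higher and 15.9% lower. The 2 genes were Cd3d (log2 ratio 1.09, 611 and 287 CPM) and Cd3g (1.04, 650 and 317 CPM), both of which were used to choose the cells. The median of the list was 0.05, that of all genes -0.09. Between CD8 and Foxp3 cells, Themis, which tunes receptor signals in developing T cells (1.70, 70.6 and 21.6 CPM), and Prkcq, the protein kinase C theta of the receptor pathway (1.51, 38.6 and 13.4 CPM), were at least 2-fold higher in CD8. The costimulatory receptor Cd28 was lower (-1.02, 68.9 and 140 CPM), and the list's median was 0.18 against -0.08 for all genes. Of all genes 4.34% were at least 2-fold higher and 7.18% lower in CD8. Between CD8 and other cells 1 gene, Cd247, the zeta chain, was at least 2-fold lower in CD8 (-1.04, 49.8 and 103 CPM), as were 5.31% of all genes. Between Foxp3 and other cells none passed in either direction (all genes 3.41% higher and 3.95% lower). Trac stood at 285 CPM in CD8, 284 in Foxp3 and 240 in other cells, so that the alpha constant gene varied little between classes, and Trbc2 stood at 852, 431 and 725 CPM.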

How the data were processed

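The authors deposited raw counts, whole numbers of UMIs per gene and barcode without normalization, as 1 matrix per group (31053 genes). Per the submitters' processing notes, Cell Ranger 3.0.2, STAR and Seurat 3 were used, with builds GRCh38 and mm10; their roles are not given in the sources used here. The libraries held 124023146 (control) and 159689787 UMIs (glioma). Groups came from the labels; the 4 samples of each group were treated as 1 pooled library.

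Gene identifiers of all 163 segments matched GENCODE M21 (GRCm38), which gave positions, biotypes and transcript sequences; 91-base windows were compared with all transcripts, and copies were aligned with Biopython 1.88. Counts were summed and analysed with Python 3.11.15, numpy 2.4.6, scipy 1.17.1 and pandas 2.3.3. Sums were scaled to CPM; log2 ratios have 0.5 UMIs added to each sum, and genes with at least 20 UMIs over both sums were compared at 2-fold. The ratio script was tested on simulated data. No doublet caller was run; cells with at least 2 UMIs of Csf1r, Adgre1 and Fcgr1 were left out as an alternative. This rule and the microglia pair were set after seeing the data, in place of longer lists that are not reported here.

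Members and gene lists were chosen with earlier results of these data known. Named segments are the 8 of each locus with most glioma T cells, the 3 leading in each class and in control, those whose intervals did not overlap between classes, the innate-like segments, dv segments in at least 3 T cells and Trbv31. Alternatives changed the UMI, mitochondrial, CD3, Cd8 and Foxp3 limits, depth, the UMIs required of a segment, shared barcodes and myeloid cells.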

Additional observations from a re-analysis of the deposited data

How the results depend on the processing

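No paired analysis was possible because the counts of each group form 1 pooled library and no barcode can be assigned to a sample. Depth is a limit of these data: with 1 molecule behind most calls, a segment not read in a cell is not shown to be absent from it. Requiring 1 CD3 UMI in place of 2 gave a Trbv share of 7.60% and a Trav share of 11.1% in glioma T cells. Thinning to 2000 UMIs gave 2.42% and 4.30% in glioma and 0.526% and 1.58% in control, and left Trbv1 in 0% of 3 Foxp3 cells with a Trbv UMI. Requiring 2 UMIs of a segment gave 0.757% and 3.67% in glioma and 0% and 2.63% in control, and left Trbv1 in 0% of 2 such Foxp3 cells. Without cells with myeloid UMIs, a setting chosen after seeing the data, the number of segments at least 2-fold higher in glioma than in control went from 5 to 0 and the number lower from 0 to 1, with 6 segments in place of 8 at 20 UMIs or more. All 5 had 0 control UMIs, and passing the limit of 20 UMIs was enough for them to be called higher. For CD8 against Foxp3 and for Foxp3 against other cells the lower count became 0, with 1 segment tested in each. At a minimum of 50 UMIs no segment was left to compare. The remaining 107 recomputed values lay within the interval of the value reported or, for counts, within 1.5 times of it.

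The class shares of 6 segments were recomputed under settings chosen after seeing the data. Without cells with myeloid UMIs, Trav10 was found in 12 of 69 Trav-positive CD8 cells (17.4%), Trav15-2-dv6-2 in 12 of 69 (17.4%), Trbv1 in 4 of 43 (9.30%), Trbv2 in 14 of 81 other cells (17.3%), Trav19 in 9 of 102 (8.82%) and Trav6-7-dv9 in 7 of 24 Foxp3 cells (29.2%). With at least 4 Cd8a and Cd8b1 UMIs required, all 12 Trav10 CD8 cells remained CD8 cells, as did 12 of the 16 Trav15-2-dv6-2 cells.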

Other observations

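The gamma and delta V genes gave a second view of the same cells. Delta segments (6 Trdv genes) were read in 39 glioma T cells, of which 37 were of the other class, 2 were Foxp3 cells and none was a CD8 cell. Trdv4 accounted for 33 of these cells, and 5 of them also held Tcrg-V6, which was read in 9 cells in all; this is the gamma and delta pair known from innate-like gamma delta T cells that make interleukin 17. The gamma gene Trgv2 was distributed the opposite way, with 75 of its 105 cells in the CD8 class, none in Foxp3 cells and 30 in other cells. In control T cells Trgv2 was read in 2 cells, both of the other class, and none of 71 CD8 cells had it.

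In CD8 cells with Trgv2 the Gzmb level was 1832 CPM, against 1218 CPM in the whole CD8 class. Among the 7 Trav16 CD8 cells 1 carried all of their Xcl1 UMIs (2432 CPM in their sum, 199 CPM in the class), which shows how far a single cell can set the level of so small a set. A Trav UMI was read in 17.9% of the 263 CD8 cells with a Pdcd1 UMI (13.4 to 23.0%) and in 17.7% of the 186 without (12.5 to 24.0%), and a Trbv UMI in 13.3% (9.45 to 18%) and 7.53% (4.18 to 12.3%). The intervals overlapped, and median depth differed (13113 and 8716.5 UMIs).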
